A study of Mus musculus with 12 samples.

Results

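DNA modification was examined at 6 genes that encode transcription factors of photoreceptors: the nuclear receptor genes Rora, Rorb, Esrrb and Nr1d1, and the Mef2 genes Mef2d and Mef2c. The members were chosen by name, with earlier results of these data known. A member's locus is its gene in the GENCODE M21 annotation of mm10 with 5 kb added on each side, and every region of both deposited lists that overlapped a locus was kept. The 6 genes, of 32093 annotated genes considered (21938 of them protein-coding), took in 315 of 193836 regions from whole-genome bisulfite sequencing (WGBS) and 539 of 592906 regions from bACE-seq.

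Cytosine modification had been profiled at postnatal day 21 (P21) in whole mouse retinas, with each assay run on 3 Cre- and 3 Tet tcKO retina samples (12 libraries in all). WGBS reads 5-methylcytosine (5mC) and 5-hydroxymethylcytosine (5hmC) together, and bACE-seq reads 5hmC alone. Cre- animals (genotype WT in the labels, strain C57 BL/6J) came from breeders without the Cre transgene. Tet tcKO animals carried floxed Tet1, Tet2 and Tet3, the genes of the enzymes that oxidise 5mC to 5hmC, and the Chx10-Cre-GFP transgene, which is active in retinal progenitors. That transgene is mosaic, and the study bred Cre+ animals together so that offspring carried a pair of functional copies. By the study's account, each DNA sample pooled the retinas of more than 1 animal. A level is therefore an average over animals and over all cell types of the retina, and a changed mix of cells cannot be told apart from a changed level within cells. The lists give 1 mean level per group and region, with no replicate values, read counts or depth. For that reason no spread, interval or test accompanies any level below, and all comparisons are descriptions.

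Nuclear receptors are transcription factors that recognise short hexamer motifs and recruit coactivators or corepressors. RORβ, the product of Rorb, acts in photoreceptor precursors upstream of the rod factor NRL, and RORα, the product of Rora, takes part in the activation of cone genes. ERRβ (Esrrb) is an orphan receptor linked to the energy supply and survival of rods. REV-ERBα (Nr1d1) is a repressor of the circadian clock that competes with ROR proteins for the same DNA elements and works with the rod factors NR2E3 and CRX. MEF2D and MEF2C belong to the MADS-box family, and MEF2D acts together with CRX at photoreceptor enhancers.

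All 315 WGBS regions at the 6 loci were higher in Tet tcKO (gains), with 0 losses, and all 539 bACE-seq regions were lower in Tet tcKO (5hmC losses), with 0 5hmC gains. In the whole lists, 98.6% of WGBS regions were gains and 592697 of 592906 bACE-seq regions were losses, which is 100% when rounded. Each of the 6 genes had at least 1 gain and at least 1 5hmC loss in its locus. Among all genes, 76.2% had a gain and 88.8% a 5hmC loss, so the presence of such regions is common. The loci differed more in how much of each was covered.

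The sequences that follow show the CpG context of start-proximal gains at 5 members, read from the mm10 reference, 5′ to 3′ in the direction of transcription, with each CpG in capitals. Rorb-201 upstream is the 300 bases before an internal Rorb start site that lay inside a gain (chr19:19001118-19001417, minus strand). Rorb-203 upstream is the 300 bases before the 5′ start of the gene, outside any called region (chr19:19111197-19111496, minus strand). The Rora and Mef2d windows are the 300-base stretches with the most CpGs inside a gain near a start site, and the Esrrb and Mef2c windows are whole short gains. The Rora gain begins 1855 bp from a start, but the Rora window within it lies more than 2 kb from that start. None of the windows overlaps an annotated untranslated region. They lie at chr9:69294824-69295123 (Rora, plus strand), chr12:86421016-86421315 (Esrrb, plus), chr3:88144003-88144302 (Mef2d, plus) and chr13:83574848-83575124 (Mef2c, plus).
Rorb-201 upstream: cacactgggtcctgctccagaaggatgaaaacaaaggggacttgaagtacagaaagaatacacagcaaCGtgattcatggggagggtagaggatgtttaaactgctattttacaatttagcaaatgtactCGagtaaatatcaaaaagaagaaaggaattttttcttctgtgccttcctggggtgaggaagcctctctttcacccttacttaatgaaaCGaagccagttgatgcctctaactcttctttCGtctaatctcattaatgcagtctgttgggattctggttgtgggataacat
Rorb-203 upstream: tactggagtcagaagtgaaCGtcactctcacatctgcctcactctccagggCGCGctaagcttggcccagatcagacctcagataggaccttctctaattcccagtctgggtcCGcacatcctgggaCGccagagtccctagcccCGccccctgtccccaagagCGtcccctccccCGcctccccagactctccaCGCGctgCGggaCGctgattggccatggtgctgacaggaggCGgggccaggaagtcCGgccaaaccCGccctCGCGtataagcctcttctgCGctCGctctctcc
Rora gain: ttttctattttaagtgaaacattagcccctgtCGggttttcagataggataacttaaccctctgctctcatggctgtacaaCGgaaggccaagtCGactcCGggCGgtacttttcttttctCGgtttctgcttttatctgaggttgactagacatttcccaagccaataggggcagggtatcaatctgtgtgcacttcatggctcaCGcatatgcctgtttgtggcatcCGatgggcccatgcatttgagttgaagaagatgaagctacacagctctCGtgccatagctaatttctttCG
Esrrb gain: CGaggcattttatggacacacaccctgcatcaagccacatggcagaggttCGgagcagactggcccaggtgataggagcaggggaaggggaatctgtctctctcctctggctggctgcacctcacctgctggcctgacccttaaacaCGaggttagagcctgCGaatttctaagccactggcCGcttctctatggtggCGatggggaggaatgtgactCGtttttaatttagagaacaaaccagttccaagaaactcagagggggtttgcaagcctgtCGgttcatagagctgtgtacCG
Mef2d gain: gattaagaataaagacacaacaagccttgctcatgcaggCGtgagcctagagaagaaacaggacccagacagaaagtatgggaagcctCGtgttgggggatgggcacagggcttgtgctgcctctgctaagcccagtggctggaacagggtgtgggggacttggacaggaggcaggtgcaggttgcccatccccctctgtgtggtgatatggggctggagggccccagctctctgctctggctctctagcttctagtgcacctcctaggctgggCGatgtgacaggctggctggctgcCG
Mef2c gain: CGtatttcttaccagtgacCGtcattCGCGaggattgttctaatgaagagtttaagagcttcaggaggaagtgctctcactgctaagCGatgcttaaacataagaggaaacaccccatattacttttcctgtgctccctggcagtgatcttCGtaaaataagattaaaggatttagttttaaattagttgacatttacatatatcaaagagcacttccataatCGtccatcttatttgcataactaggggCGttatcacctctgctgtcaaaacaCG

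The Rorb pair shows the contrast in CpG content between the start sites of that gene, with 4 CpGs before Rorb-201 and 19 before Rorb-203. Over 53327 windows of 300 bases before annotated start sites the median was 8 CpGs, with quartiles of 3 and 20. The Rora window held 10 CpGs, the Esrrb and Mef2c windows 9 each and the Mef2d window 4. Of 3 motifs searched on both strands in these 6 windows, AGGTCA (bound by many nuclear receptors), TAATCC (bound by CRX and OTX2) and CACGTG (an E-box), 0 matches were found, which says only that these letters are not in these windows. AGGTCA occurred in 15.4% of the windows before start sites and in 19.6% of 300-base windows centred on all 191164 gains. The corresponding shares were 8.22% and 15.3% for TAATCC and 7.05% and 6.66% for CACGTG.

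Gains held a larger share of the CpGs at 5 of the 6 loci than at most genes. Of the 14029 CpGs in the loci, 3928 (28.0%) lay in a gain, against 8.61% of the 21867550 CpGs of the genome. The share of a locus's CpGs in gains was 51.4% at Nr1d1, 44.7% at Rorb, 39.8% at Mef2d, 32.4% at Esrrb, 25.4% at Rora and 6.56% at Mef2c. The median of the 6 was 36.1%, and that of all genes was 6.44%, with an upper quartile of 13.1% and a 90th percentile of 21.1%. The 5 loci other than Mef2c lay above that 90th percentile, while Mef2c lay near the median. Among protein-coding genes the members ranked at percentiles 99.7 (Nr1d1), 99.4 (Rorb), 99.0 (Mef2d), 97.7 (Esrrb), 95.0 (Rora) and 51.8 (Mef2c). These ranks are not matched for gene length, which ran from 7402 bp at Nr1d1 to 734461 bp at Rora. They describe members chosen with earlier results of these data known.

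5hmC losses were wider. They held 8936 of the 14029 CpGs (63.7%), against 34.4% of the CpGs of the genome. By locus the share was 78.1% at Esrrb, 74.0% at Rorb, 64.0% at Rora, 62.1% at Nr1d1, 52.6% at Mef2d and 32.1% at Mef2c. The median was 63.0% over the members and 36.6% over all genes. Mef2c was the lowest member in both assays.

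**Figure D1:**
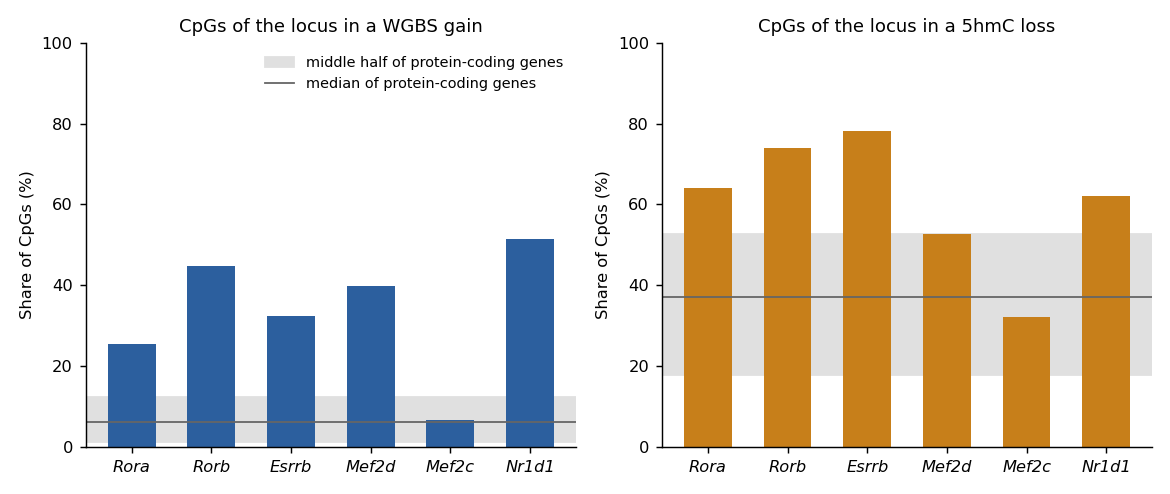
Share of the CpGs of each locus (gene and 5 kb flanks, vertical axis in percent) inside WGBS gains (left) and 5hmC losses (right), with 1 bar per gene; the grey band spans the quartiles and the line marks the median of protein-coding genes. Nr1d1, at 51.4%, is highest for gains and Esrrb, at 78.1%, for 5hmC losses, while Mef2c, at 6.56% and 32.1%, lies inside the band in both panels.

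Within the called regions the group means were weighted by CpGs. The WGBS level in gains rose from 51.3% in Cre- to 78.0% in Tet tcKO at Rorb, from 40.6% to 63.2% at Mef2d, and from 57.7% to 79.6% at Mef2c. It rose from 57.1% to 78.0% at Esrrb, from 59.0% to 78.7% at Rora and from 52.9% to 71.3% at Nr1d1. The rise was largest at Rorb, at 26.7 percentage points, and smallest at Nr1d1, at 18.3 points. The median of the 6 was 21.4 points, against 15.8 points over the 24460 genes with a gain. Mef2d started from the lowest level and also ended lowest.

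The 5hmC level in losses fell from 29.7% in Cre- to 7.34% in Tet tcKO at Rorb and from 29.4% to 6.88% at Mef2d. These Cre- levels ranked at percentiles 99.6 and 99.5 among protein-coding genes with a 5hmC loss. The level fell from 23.0% to 5.32% at Esrrb, from 20.0% to 5.03% at Rora, from 18.3% to 4.97% at Nr1d1 and from 14.6% to 3.08% at Mef2c. Mef2c was again near the middle of genes, at percentile 50.6. The share of the Cre- level that remained in Tet tcKO ran from 21.1% at Mef2c to 27.2% at Nr1d1. Its median was 24.1%, against 23.5% over all genes with a loss. The quartiles over those genes were 21.2% and 25.4%, and the 90th percentile was 27.1%. The members thus spread over much of the range of all genes. Their Cre- levels in called losses, from 14.6% to 29.7%, covered a wider range of points. The paper reports that a small part of unmodified cytosines escaped conversion in bACE-seq. The levels were not corrected for this here, so the level that remained in Tet tcKO can include unconverted cytosine.

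Most CpGs in the members' gains were also in a 5hmC loss, from 67.0% at Mef2d and 67.4% at Mef2c to 87.8% at Esrrb. Such overlap was common in the whole list. As a mean over gains, 80.7% of a gain's CpGs lay in a 5hmC region for the members and 70.7% for all gains. At the members' CpGs in both, the 5hmC level divided by the WGBS level gives the part of modified cytosine read as 5hmC. In Cre- it was 57.3% at Mef2d, 53.3% at Rorb, 44.5% at Esrrb, 36.5% at Rora, 34.9% at Nr1d1 and 28.0% at Mef2c. In Tet tcKO it lay between 5.32% (Mef2c) and 10.0% (Mef2d). The WGBS level less the 5hmC level, which leaves an estimate of 5mC alone, was lowest at Mef2d and highest at Mef2c in both groups. It went from 21.4% in Cre- to 62.1% in Tet tcKO at Mef2d, from 26.0% to 72.7% at Rorb and from 45.6% to 78.0% at Mef2c. These figures join means of separately called regions of 2 assays, and incomplete conversion was not analysed here.

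Rorb encodes the ROR factor of photoreceptor precursors and spans chr19:18930605-19111196 on the minus strand. Its 54 gains included 12 that rose by at least 30 points (22.2% of them, against 7.04% of all gains), and 18 of at least 1 kb. The share of all gains of that length was not computed. The median length was 471 bp for the Rorb gains and 380 bp for all gains. The gain with the largest product of CpGs and change covered the internal start site shared by Rorb-201 and Rorb-202. It ran over 7920 bp (chr19:18994032-19001951, 70 CpGs) and rose from 29.4% to 69.8%. On its upstream side lay a 446-bp gain (chr19:19002509-19002954, 40.6% to 79.9%) and a 2717-bp gain (chr19:19003489-19006205, 23.6% to 66.6%). Within 2 kb of that start, 97.8% of the CpGs lay in a gain, with mean levels of 31.4% and 71.6%.

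The Rorb-203 start, at the 5′ end of the gene, differed in CpG content and in coverage. It had 40 CpGs within 500 bp, compared with 17 at the internal start, and 4.67% of the CpGs within 2 kb lay in a gain. Its nearest gain was 1259 bp upstream and had high levels, 74.9% in Cre- and 87.1% in Tet tcKO. Farther into the first intron, 3095 bp (chr19:19103881-19106975) rose from 29.8% to 71.3% and 2707 bp (chr19:19100315-19103021) from 29.7% to 69.9%. Long gains of Rorb also began at higher levels, such as 4157 bp of intron (chr19:19092449-19096605, 61.2% to 86.5%) and 3447 bp with a coding exon (chr19:18987396-18990842, 65.1% to 87.4%).

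5hmC losses at Rorb covered most CpGs of the gene body, but neither start site lay inside a loss. Within 2 kb of a Rorb start, 15.1% of CpGs lay in a 5hmC loss, compared with 27.0% for all genes. Of the CpGs between the starts 71.2% lay in a loss, and of those from the internal start to the 3′ flank 81.6%, with Cre- levels of 29.5% and 29.9%. The largest loss by CpGs and change (chr19:18976700-18988296, 11597 bp) fell from 35.0% to 9.30%. The highest Cre- level at any member, 43.3%, was in an 80-bp intron region of Rorb with 4 CpGs (chr19:19031522-19031601), where Tet tcKO had 13.9%. The 7920-bp gain over the internal start had fewer CpGs in a 5hmC loss, 42.9%.

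**Figure D2:**
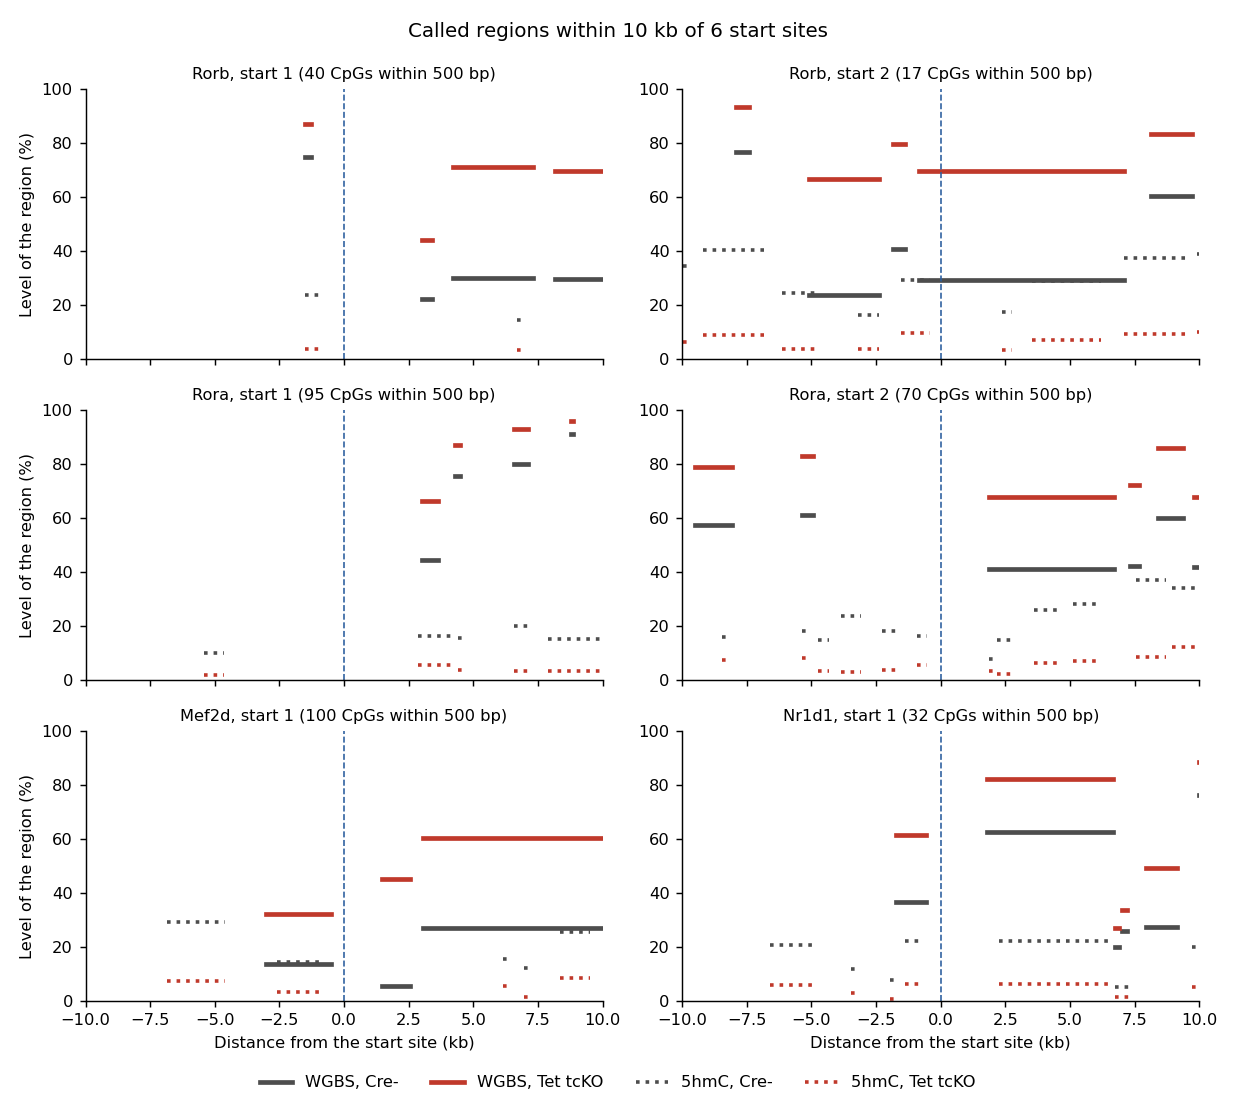
Called regions within 10 kb of 6 start sites of Rorb, Rora, Mef2d and Nr1d1, with the distance from the start in kb on the horizontal axis (positive in the direction of transcription) and the mean level of the region in percent on the vertical axis; solid bars are WGBS, dotted bars 5hmC, grey is Cre- and red Tet tcKO. The gain at Rorb start 2 (29.4% to 69.8%) spans the dashed start line, whereas no region lies within 2 kb of Rora start 1.

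Rora, the other ROR gene, is the longest member (chr9:68653786-69388246, plus strand) and has 2 annotated start sites 635896 bp apart. It held 178 gains, of which 13 (7.30%) rose by at least 30 points, close to the 7.04% of all gains. The start of the long transcript Rora-201, with 95 CpGs within 500 bp, had no region of either list within 2 kb. The nearest gain there was 3014 bp away and rose from 44.3% to 66.3%. Near the start of Rora-202, with 70 CpGs within 500 bp, a 4852-bp gain began 1855 bp downstream (chr9:69291537-69296388, 74 CpGs) and rose from 41.1% to 67.9%. It was the largest gain of the gene by CpGs and change, and the printed Rora window is its CpG-richest part.

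The part of Rora that both transcripts share was more densely covered than the rest. From the Rora-202 start to the 3′ flank, 44.0% of 1332 CpGs lay in gains, compared with 21.8% of 6582 CpGs in the stretch before it. 5hmC losses held 77.1% and 61.9% of these CpGs, and the Cre- 5hmC level was 27.7% compared with 18.1%. The largest loss of the gene lay in this part, over 9505 bp (chr9:69334819-69344323), and fell from 35.1% to 8.64%. The steepest rise at any member was in a 250-bp intron gain of Rora with 4 CpGs (chr9:68982583-68982832, 28.7% to 77.1%), where no 5hmC region was called. A 1145-bp intron gain with 26 CpGs (chr9:68791877-68793021) rose from 23.7% to 65.2%. The antisense gene Gm15511 lies within the shared part, and its bases were counted with Rora.

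Esrrb, the gene of ERRβ (chr12:86361117-86521628, plus strand), had an uneven distribution along its start sites. Between the start of Esrrb-204 at the 5′ end and the cluster of Esrrb-201, Esrrb-202 and Esrrb-203, 4.21% of 760 CpGs lay in gains. From that cluster to the start of Esrrb-206 the share was 61.1% of 684 CpGs, and from there on 36.4% of 750. 5hmC losses covered 65.4%, 71.9% and 96.9% of the CpGs of these 3 segments, with Cre- levels of 15.2%, 28.0% and 25.3%. The first segment thus carried 5hmC losses with few gains and a lower 5hmC level.

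Close to the Esrrb start sites the gains were modest in size. Upstream of Esrrb-204 a 181-bp gain went from 59.2% to 73.6% and a 250-bp gain from 67.2% to 80.9%. Upstream of the cluster, the 299-bp region printed above went from 20.5% to 35.4%, and 1141 bp downstream a 127-bp region went from 5.35% to 9.35%, the smallest rise at any member. A larger gain began 1650 bp downstream (chr12:86423533-86428004, 4472 bp, 54 CpGs) and rose from 31.5% to 65.5%. No gain lay within 2 kb of Esrrb-206, which instead sat inside the longest 5hmC loss of the gene (chr12:86463105-86475060, 11956 bp, 25.0% to 5.79%). The steepest rise in Esrrb was in an intron region of 587 bp with 12 CpGs (chr12:86456206-86456792, 36.1% to 81.8%), all of them in a 5hmC loss. 5hmC losses held 90.1% of the CpGs within 2 kb of Esrrb-204 and 100% of those around Esrrb-206, but 11.5% of those around the CpG-richer cluster between them.

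Mef2d (chr3:88142372-88172086, plus strand) had 10 gains, of which 2 lay within 2 kb of a start position. Upstream, a 2540-bp gain with 49 CpGs (chr3:88139340-88141879) rose from 13.8% to 32.2%. In the first intron, 1068 bp with 11 CpGs (chr3:88143853-88144920) rose from 5.58% to 45.0%, and 9985 bp with 82 CpGs (chr3:88145436-88155420), the longest gain at any member, from 27.0% to 60.5%. The start itself, with 100 CpGs within 500 bp, lay in the gap between the upstream gain (493 bp away) and the intron gain. The remaining 7 gains started from 26.6% to 82.5% and rose by 10.3 to 22.2 points.

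The upstream gain and these intron gains of Mef2d differed in their 5hmC. The 1068-bp gain had no 5hmC region, the 9985-bp gain had 47.6% of its CpGs in a loss and the upstream gain 57.1%. Cre- levels of 5hmC were high in parts of the gene body. A 2560-bp loss that overlaps the end of the 9985-bp gain (chr3:88154215-88156774) fell from 39.9% to 10.7%, and a 10398-bp loss (chr3:88162285-88172682, 131 CpGs), which reaches the 3′ end, fell from 32.1% to 7.12%. All 107 CpGs of Mef2d exons away from start sites lay in a 5hmC loss. The gene 1700113A16Rik overlaps the 3′ end on the opposite strand, and signal there belongs to both.

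Mef2c (chr13:83504034-83667080, plus strand), the paralogue, had 13 gains of 140 to 895 bp, none as long as 1 kb, and 11 annotated start positions in 4 clusters. No gain lay within 2 kb of the first 2 clusters, where the nearest gain was 12292 bp or more away. Between clusters 3 and 4 the 276-bp gain printed above (9 CpGs) rose from 43.5% to 73.2%, and all of its CpGs lay in a 5hmC loss that fell from 17.7% to 4.67%. The largest gain by CpGs and change was in an intron, over 895 bp (chr13:83604162-83605056), and rose from 25.3% to 61.6% with no 5hmC region. At the first cluster a 68-bp 5hmC loss with 6 CpGs fell from 8.08% to 2.53%. The gains of Mef2c were few, but their CpG-weighted rise, 22.0 points, lay between those of Esrrb and Mef2d.

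Nr1d1, the clock repressor gene, is the shortest member (chr11:98767932-98775333, minus strand) and had 7 gains. One of them, with 112 CpGs over 4897 bp (chr11:98768655-98773551), covered most of the exons and introns and rose from 62.7% to 82.4%. An upstream gain of 1154 bp (chr11:98775896-98777049, 18 CpGs, 563 bp from the start) rose from 36.5% to 61.6%, the steepest rise of the gene. Of the CpGs in introns away from the start 95.0% lay in a gain, and of those in exons 89.0%. 5hmC over the gene body fell from 22.3% to 6.35% (chr11:98768819-98773074) and upstream from 22.1% to 6.05%.

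The 3′ end of Nr1d1 overlaps Thra, a thyroid hormone receptor gene on the opposite strand. In the overlap, gains of 188 bp and 154 bp went from 26.0% to 33.7% and from 19.8% to 27.1%. A 1199-bp gain within Thra and outside Nr1d1 (chr11:98766193-98767391) rose from 27.2% to 49.3%, with no 5hmC region. With the bases of Thra left out, an alternative added after the data had been seen, 52.5% of the Nr1d1 CpGs lay in gains. The rise was then 20.5 points at Nr1d1, no longer the smallest, and 19.9 points at Rora with the bases of Gm15511 left out. Without the bases of Thra, the share of Nr1d1 CpGs in 5hmC losses was 54.7%, compared with 62.1% with them. The 5hmC change at Nr1d1 was -15.1 points, compared with -13.3 points.

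**Figure D3:**
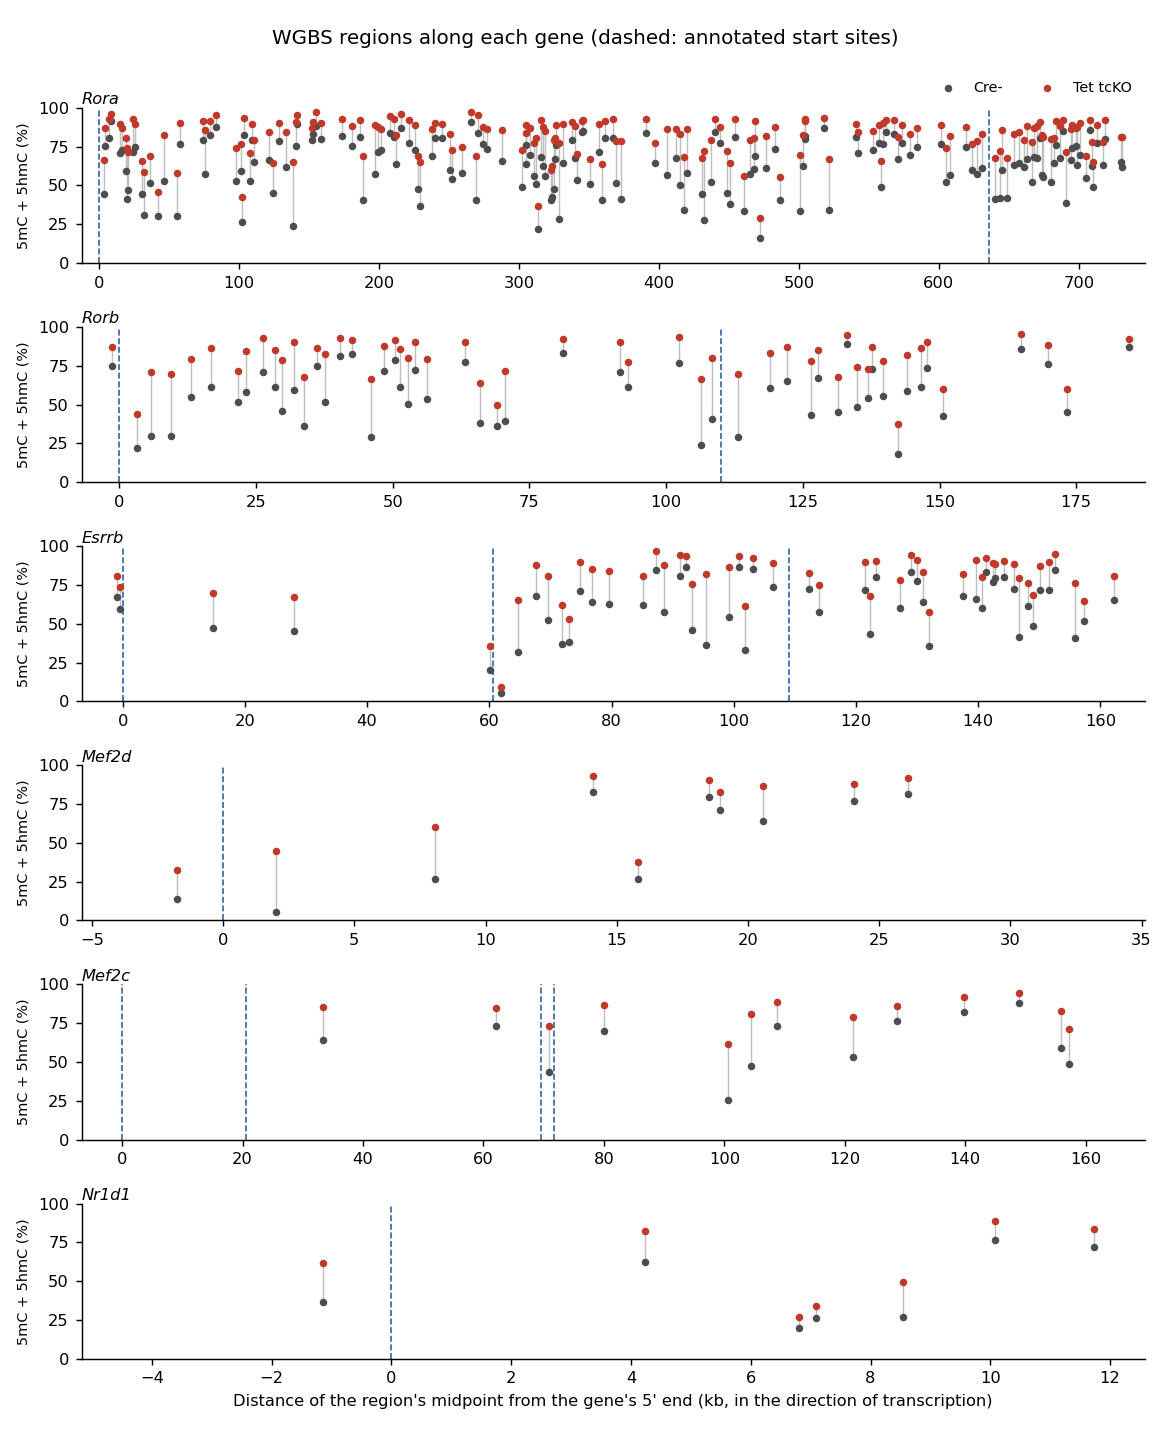
WGBS regions along each gene, with the distance of the region's midpoint from the 5′ end in kb on the horizontal axis and the mean level of 5mC and 5hmC in percent on the vertical axis; grey points are Cre-, red points Tet tcKO, a line joins the pair of each region and dashed lines mark annotated start sites. Every red point lies above its grey partner, and Esrrb has few gains in its first segment, where 4.21% of CpGs were covered.

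**Figure D4:**
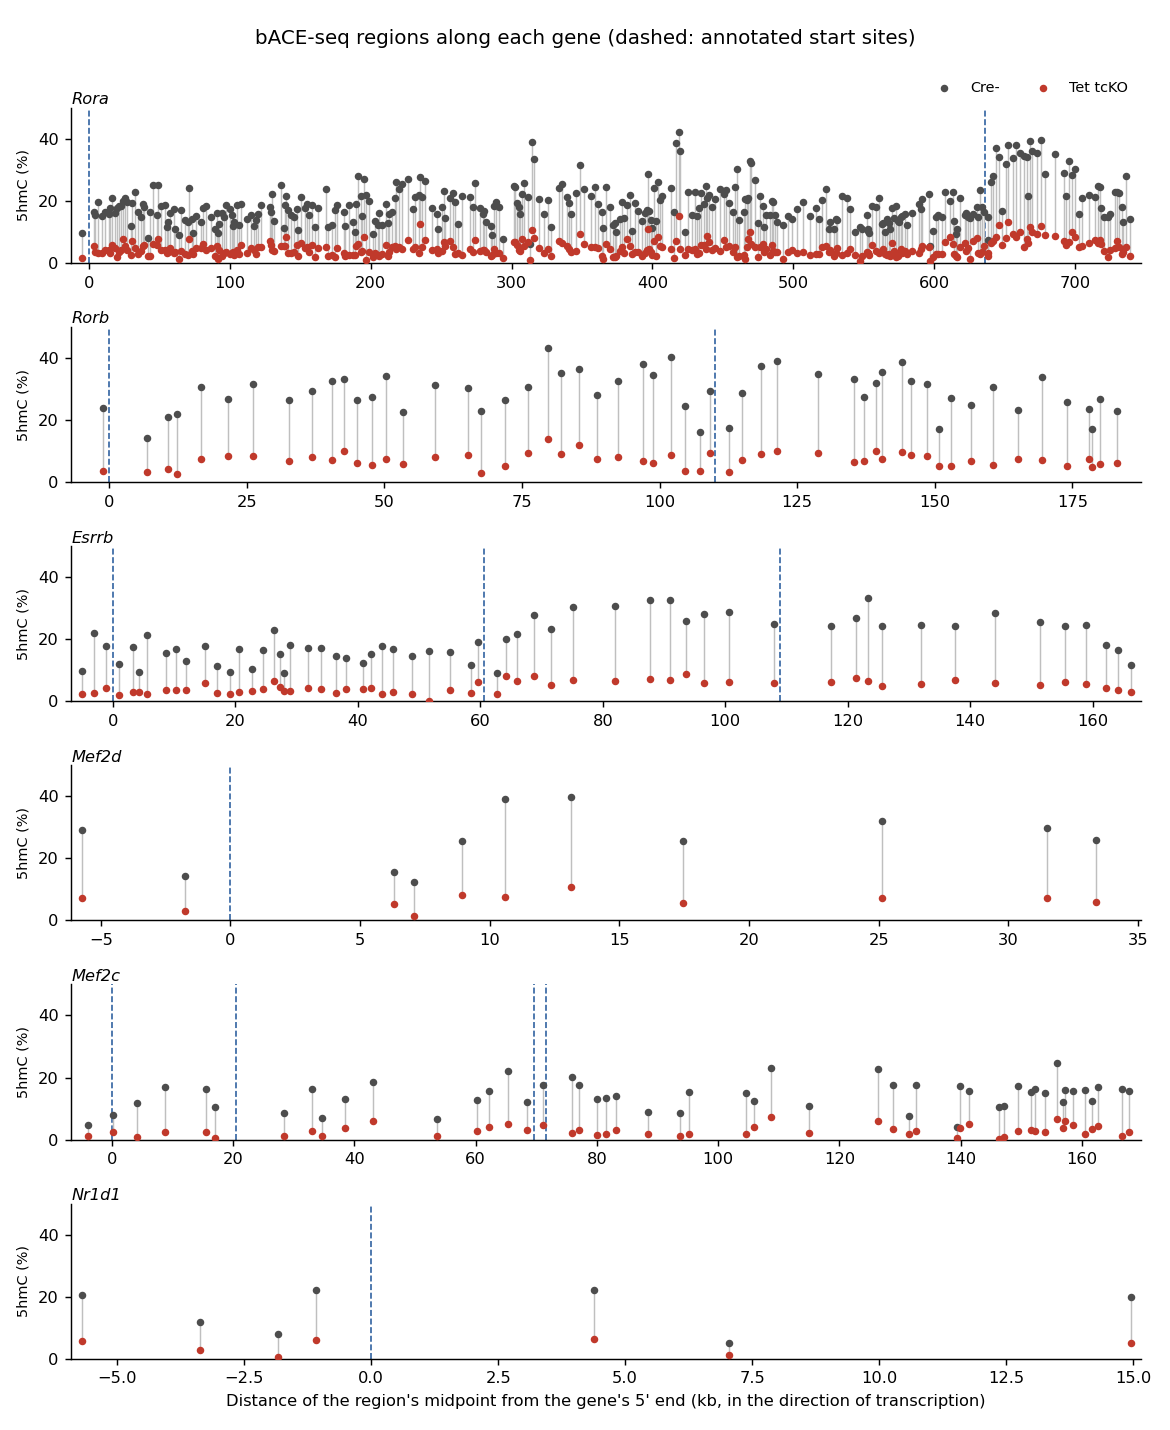
bACE-seq regions along each gene, drawn in the same way, with the mean 5hmC level in percent on the vertical axis. Every Tet tcKO point lies below its Cre- partner, and in Rora the Cre- points after the dashed line of start 2 lie higher (27.7% weighted by CpGs) than before it (18.1%).

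Across the members, 6 of 6 had a gain within 2 kb of an annotated start site, as did 49.5% of all genes, and 6 of 6 had a 5hmC loss there, as did 79.4% of all genes. These shares are not matched for the number of start positions per gene, which ran from 1 at Nr1d1 to 11 at Mef2c. Counting only the 5′ end of each gene, 4 of 6 had a gain, all but Rora and Mef2c. The share of all genes counted in that way was not computed. Of the 23 start positions of the members 1 (4.35%), that of Rorb-201, lay inside a gain, near the 6.85% of all 53326 start positions, and 3 (13.0%) lay inside a 5hmC loss, against 17.0%. In the windows of 2 kb on each side of a start, 11.4% of the members' CpGs lay in gains, compared with 9.83% for all genes. Rora holds 361 of these 1314 CpGs and lowers the pooled value. Rorb (32.2%), Nr1d1 (21.1%) and Mef2d (19.9%) lay above the share of all genes. Esrrb (9.60%), Mef2c (4.66%) and Rora (0.831%) lay below it. The level in gains of these windows rose from 31.4% to 58.4% for the members and from 41.5% to 57.1% for all genes. Of the 150 CpGs behind the members' level, Rorb gave 49 and Mef2d 35, but Mef2c 9 and Rora 3. By gene, the Cre- level in these gains ran from 12.4% at Mef2d to 43.5% at Mef2c. The rise ran from 17.8 points at Esrrb to 37.4 points at Rorb, compared with 15.6 points for all genes.

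Of the 315 gains 14, and of the 539 5hmC losses 17, lay within 2 kb of a start position. The shares of all gains and of all losses near a start were not computed, so these counts have no background. The members' gains within 2 kb of a start began at 5.35% (Esrrb) to 74.9% (Rorb-203) in Cre- and ended at 9.35% to 87.1%. The 5hmC losses there began at 7.51%, downstream of Rora-202, to 29.2%, upstream of the internal Rorb start, where Tet tcKO had 9.40%. The start-proximal 5hmC levels of the CpG-rich starts of Rora-202 (16.3% to 5.48% in the nearest region) and Mef2d (14.5% to 3.06%) were below those of their gene bodies.

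With the CpGs of the members pooled, the wider gap to all genes was in the gene body. Outside start windows, 35.1% of the members' exon CpGs and 30.1% of their intron CpGs lay in gains, compared with 11.6% and 11.4% for all genes. For 5hmC losses, 91.9% of exon CpGs and 67.1% of intron CpGs were covered, compared with 56.5% and 46.3%. In start windows the order was the other way, with 22.0% for the members and 27.0% for all genes. Rora, with 7403 of the 11588 intron CpGs, dominates the pooled intron value, and its own share in gains was 26.6%. By gene, intron shares in gains ran from 6.88% at Mef2c to 95.0% at Nr1d1. Exon shares were 10.3% at Mef2c, 14.1% at Esrrb, 22.5% at Rorb, 33.1% at Rora, 51.4% at Mef2d and 89.0% at Nr1d1. Mef2c thus lay below the 11.6% of all genes in exons, and Esrrb lay near it.

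The median rise of a gain differed between ranges of the Cre- level. Of the members' gains, 23 began below 30%, 60 between 30% and 50%, 111 between 50% and 70% and 121 at 70% or more. Their median rises were 22.2, 25.7, 20.7 and 11.7 points, compared with 16.6, 23.3, 18.2 and 10.8 points for all gains. The rise contains the Cre- level by construction and cannot exceed the room left below 100%, and a dependence was not tested. Gains that began below 30% overlapped 5hmC losses least, with a mean of 41.0% of their CpGs in a loss, compared with 89.8% for those at 70% or more. For all gains these means were 33.5% and 78.0%. The low-level members' gains were long at Rorb, where 7 of them had a median length of 2707 bp and a median rise of 40.2 points, and short at Nr1d1, where 3 had a median length of 188 bp and a median rise of 7.71 points.

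**Figure D5:**
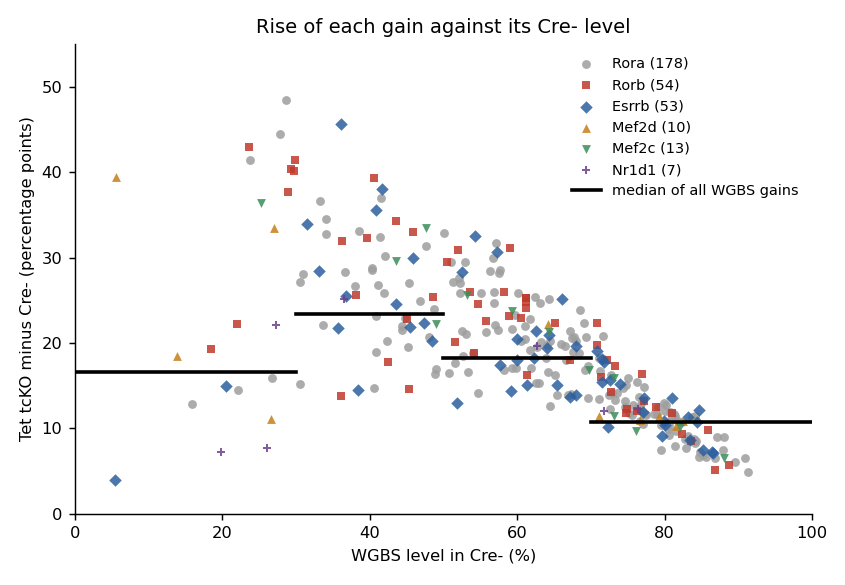
Rise of each of the 315 gains (Tet tcKO minus Cre-, percentage points) against its WGBS level in Cre- (percent), with 1 symbol per region, 1 colour and shape per gene and black bars at the median of all gains in 4 ranges of Cre- level. The Rorb squares below 30% have a median rise of 40.2 points, above the bar at 16.6.

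A further 24 genes of the same families and pathways give the setting. All 24 had a gain and a 5hmC loss, and 21 had a gain within 2 kb of a start. The relatives Esrra, Esrrg, Nr1d2, Mef2a and Mef2b, had 1.72% (Esrra) to 17.3% (Esrrg) of their CpGs in gains, with a median of 6.08%, so each of them lay below the 5 members other than Mef2c. Their 5hmC losses held 39.4% to 58.4% of CpGs. Nr1d2, which encodes REV-ERBβ, had 17.2% in gains, compared with 51.4% at Nr1d1. Mef2a, at 6.08%, was close to Mef2c.

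Among 9 other nuclear receptor genes of the retina the share in gains ran from 1.17% at Nr2f2 to 65.4% at Nr2e3, the rod receptor gene, with a median of 8.95%. The Nr2e3 level in gains rose from 43.5% to 75.6%. Rxra, which encodes a heterodimer partner of many receptors, had 37.1%, and Rxrg and Thrb, which act in cones, had 2.97% and 7.61%. Of 8 clock genes, Arntl, whose product BMAL1 drives Nr1d1 transcription, had 34.4% and Cry2 33.3%, and the median was 14.9%. Of 2 corepressor genes, Hdac3 had 7.28% and Ncor1, a partner of REV-ERBα, 4.36%. High coverage therefore also occurred outside the 6 members. The share of 5hmC that remained was 18.1% to 27.4% over the 24 genes, with a median of 23.9%.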

How the data were processed

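Genomic DNA of whole P21 retinas had been profiled by WGBS and bACE-seq, with 3 libraries per group and assay, grouped here by the sample labels. According to the study's methods and the submitters' processing notes, the authors used Trim Galore (0.4.4) for trimming, Bismark (0.18.2) for alignment to mm10, SAMtools (1.15.1) to keep a mapping quality of 10 or more, Picard (GATK 4.1.3) against duplicates and MethylDackel (0.6.1) for CpG levels. Regions came from DSS on smoothed levels, with a p threshold of 0.01 per CpG and a minimum of 3 CpGs and 50 bp per region. Smoothing spreads levels over neighbouring CpGs, and calling on a change makes the levels of called regions differ from those of all CpGs, so a CpG outside a region was not shown to be unchanged.

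The deposited level of a region is a fraction of modified reads from 0 to 1, the authors' mean per group, and is printed as a percentage. Replicate values, counts and depth were not analysed here. The deposited columns of differences and area statistics, the authors' own comparison, were not used. Changes were computed as Tet tcKO minus Cre-.

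CpGs were located in the mm10 reference, where every region end fell on a CpG, and the listed number of CpGs equalled the reference number in 311 of 315 WGBS and 505 of 539 bACE-seq member regions. Levels per locus or position were weighted by CpGs. Start positions within 1000 bp were grouped. Shares are of CpGs in a region, and a CpG within 2 kb of a start was counted there before exon, intron or flank. Scripts ran in Python 3.11.15 with numpy 2.4.6 and pandas 2.3.3, and the counting was checked on simulated regions. The regions named are, per member, the gain with the largest product of CpGs and absolute change and the gains within 2 kb of a start. The 5hmC loss with the largest product is described above for Rora, Rorb, Esrrb and Mef2d. At Nr1d1 it lay downstream of the gene (chr11:98755152-98765605, 19.9% to 5.20%). At Mef2c it lay in the gene body (chr13:83652260-83654658, 17.3% to 2.85%). Only some of the 5hmC losses near a start are named. Other regions, chosen after their values were seen, are extremes of a member or neighbours of these. The members and the lists of other genes were chosen with earlier results of these data known. No test was run, since 1 mean per group leaves none. The alternatives were stricter regions, other flanks and windows, base pairs and other weights. A few genes of these lists and 1 sequence are not reported here.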

Additional observations from a re-analysis of the deposited data

How the results depend on the processing

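No paired analysis was possible because the lists hold group means and no values per replicate, and leaving out a replicate could not be run for the same reason. None of the 55 values recomputed for the 7 summary results over the members changed direction, and 50 stayed within 1.5 times the main value. With a difference of at least 20 points required, the median share of CpGs was 14.0% in gains and 15.9% in 5hmC losses, and 1 member, Rorb, kept a 5hmC loss within 2 kb of a start. Mef2c and Nr1d1 then had no 5hmC loss, so the medians of 5hmC change cover 4 members. In windows of 2 kb around start sites the median share was 14.7% in gains and 15.4% in 5hmC losses. Of 254 values for single members, 26 moved by more than 1.5 times and 0 reversed. Among them, regions of at least 10 CpGs left 1.03% of the Mef2c CpGs in gains, and counting base pairs in place of CpGs put the share in gains at 14.7% for Rora, 29.6% for Rorb and 2.89% for Mef2c. With the difference of at least 20 points, the share in gains at Nr1d1 fell from 51.4% to 9.55%, so that Nr1d1 no longer ranked highest. The share was then 33.8% at Rorb, 18.8% at Mef2d, 15.8% at Esrrb, 12.3% at Rora and 4.35% at Mef2c. Leaving out the bases of other annotated genes, added after the data had been seen, moved no value by more than 1.5 times. Depth was not analysed here, since the region lists do not hold it, and no limit set by it is stated.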
